A study of Mus musculus with 18 samples.

Results

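The genes described here govern how glucose enters a cell and passes the first controlled steps of glycolysis. They are the glucose transporter genes Slc2a1 and Slc2a3, the hexokinase genes Hk1, Hk2 and Hk3, the phosphofructokinase genes Pfkl, Pfkm and Pfkp, and Pfkfb3 and Pfkfb4, which encode enzymes that set the level of an activator of phosphofructokinase. They were taken by their symbols, 10 of 25915 distinct symbols over 3 deposited tables. All 10 were found in every table and had enough reads to be tested in every comparison.

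Glucose is carried across the membrane by transporters of the GLUT family, trapped inside the cell by phosphorylation through hexokinase, and committed to glycolysis by phosphofructokinase. Phosphofructokinase is switched on by fructose-2,6-bisphosphate, which the PFKFB enzymes make and break down. Macrophages are known to raise glucose uptake and glycolysis when they are activated, and several of these genes are known targets of the hypoxia-inducible factors.

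RNA was sequenced from mouse Kupffer cells, the macrophages that reside in the liver, after acetaminophen, a drug that injures hepatocytes when overdosed. The mice were wild-type C57BL/6J, and the labels give no age, sex or dose. There were 18 libraries in 6 groups of 3: acetaminophen at 0 h, 3 h, 6 h and 12 h, acetaminophen with a control IgG antibody, and acetaminophen with an antibody to CD41, the integrin subunit on platelets. By its title, the study concerns aldolase that platelets hand to Kupffer cells. Every group carries acetaminophen in its treatment label, but the table columns at 0 h are named for PBS, so that this group is described by its time alone. No time is given for the antibody groups. Cells were released by collagenase, enriched on a density gradient and kept by adherence to a dish, and the perfusion buffer held glucose. Nothing states that replicates came from separate animals, so p-values measure only the spread between these samples.

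Total counts were 18644358 to 20583099 per library in the time course and 28017439 to 38382509 in the antibody groups. All 15 Kupffer cell markers were tested in each comparison, and their summed level ran from 10716 to 24635 CPM (counts per 1000000 of the library's total) per library. Markers of other liver cells were present as well. Summed over the marker lists, hepatocyte markers ran from 967 to 8786 CPM, sinusoidal endothelial markers from 1766 to 10898 CPM, markers of monocytes and monocyte-derived macrophages from 462 to 8469 CPM and neutrophil markers from 385 to 5117 CPM. In bulk RNA, fewer cells of a type and less RNA per cell cannot be told apart.

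Positions are those of the GRCm38 annotation. Slc2a1 (Entrez 20525; chromosome 4, 119108711 to 119137983, plus strand) encodes GLUT1, the widespread basal glucose transporter, and Slc2a3 (20527; chromosome 6, 122727809 to 122801640, minus strand) encodes GLUT3, a transporter of high affinity that neurons and leukocytes use. Hk1 (15275; chromosome 10, 62268855 to 62379908), Hk2 (15277; chromosome 6, 82725025 to 82774454) and Hk3 (212032; chromosome 13, 55005985 to 55021385) lie on the minus strand. Hk1 is the housekeeping hexokinase, Hk2 the inducible one, and Hk3 is best known from myeloid cells. Pfkl (18641; chromosome 10, 77986947 to 78010083, minus strand), Pfkm (18642; chromosome 15, 98092589 to 98132451, plus strand) and Pfkp (56421; chromosome 13, 6579768 to 6648777, minus strand) encode the liver, muscle and platelet types of phosphofructokinase. Pfkfb3 (170768; chromosome 2, 11471433 to 11554077, minus strand) and Pfkfb4 (270198; chromosome 9, 108991778 to 109032228, plus strand) encode bifunctional enzymes, of which that of Pfkfb3 strongly favours making the activator. All 10 are protein-coding.

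The promoters of Pfkfb3, Slc2a1 and Hk2 are shown because Pfkfb3 had the largest rise at 3 h, Slc2a1 had the largest difference in the antibody groups, and Hk2 is a textbook target of hypoxia-inducible factors among the hexokinases. Each is the stretch of 250 bases before a RefSeq transcription start in GRCm38.p6, written 5′ to 3′ on the gene's strand, and Pfkfb3 has 2 such starts. RefSeq starts can lie inside the gene bounds given above. Capitals mark ACGTG or GCGTG on either strand (CACGT and CACGC where the match is on the other strand), the core letters of the hypoxia response element.
Pfkfb3 start 1 (chr2:11553930-11554179, minus strand): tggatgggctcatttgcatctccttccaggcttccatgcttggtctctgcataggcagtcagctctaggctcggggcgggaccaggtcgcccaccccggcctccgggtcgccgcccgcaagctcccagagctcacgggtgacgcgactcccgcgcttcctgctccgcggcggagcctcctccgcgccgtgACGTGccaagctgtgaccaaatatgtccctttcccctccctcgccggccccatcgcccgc
Pfkfb3 start 2 (chr2:11502091-11502340, minus strand): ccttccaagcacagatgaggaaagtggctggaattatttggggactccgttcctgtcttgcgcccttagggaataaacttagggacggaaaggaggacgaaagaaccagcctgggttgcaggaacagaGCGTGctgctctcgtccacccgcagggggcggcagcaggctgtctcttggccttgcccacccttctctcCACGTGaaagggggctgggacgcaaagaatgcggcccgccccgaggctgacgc
Slc2a1 (chr4:119108495-119108744, plus strand): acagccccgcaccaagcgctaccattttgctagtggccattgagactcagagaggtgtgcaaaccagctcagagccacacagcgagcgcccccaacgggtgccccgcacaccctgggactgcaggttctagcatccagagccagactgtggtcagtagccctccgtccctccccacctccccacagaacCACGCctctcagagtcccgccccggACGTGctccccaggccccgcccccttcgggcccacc
Hk2 (chr6:82774455-82774704, minus strand): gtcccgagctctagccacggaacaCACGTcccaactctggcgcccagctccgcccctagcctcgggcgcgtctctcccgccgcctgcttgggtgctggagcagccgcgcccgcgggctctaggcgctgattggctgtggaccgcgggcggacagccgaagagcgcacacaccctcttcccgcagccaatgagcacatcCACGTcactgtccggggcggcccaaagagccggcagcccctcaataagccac
Start 1 of Pfkfb3 had 1 match, whose first base lay 60 bases before the start. Start 2 had 3 matches, at 122, 53 and 52 bases, of which the last pair overlap in the palindrome CACGTG. Slc2a1 had matches at 61 and 36 bases and Hk2 at 226 and 52 bases before the start. RefSeq gave promoters for 9 of the 10 genes, all but Slc2a3, and each of the 9 had a match in at least 1 of its windows, or 12 of 14 windows in all. Over the whole promoter table, 38.6% of 32851 windows and 41.5% of 27025 genes had a match. These shares were not matched to the 9 genes for content of G and C or for number of starts. Whether the 9 genes hold more matches than like promoters was not tested. A match of 5 letters is a description of the sequence and not a site of binding.

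The 10 genes differed in which group held their highest level. Levels are plain CPM from the deposited counts. Because the 3 tables were made separately, levels across them are set side by side and were not tested. Pfkfb3 had its highest group mean at 3 h, 261 ± 91.7 CPM (SD, n = 3), and Hk2 had its highest there too, 174 ± 46.7 CPM. For both genes the group with the next highest mean, IgG, overlapped with 3 h, in the case of Pfkfb3 through IgG replicate 3 alone. Slc2a1, Slc2a3, Hk1, Hk3, Pfkl, Pfkp and Pfkfb4 had their highest mean in the IgG group. For Hk3, Pfkl and Pfkp the 3 IgG libraries lay above all 3 libraries of the next group, anti-CD41. For Slc2a1, Slc2a3, Hk1 and Pfkfb4 the IgG range overlapped with that of the next group. The place of IgG rested on its replicate 3 for 3 of these genes. The other IgG libraries measured 86.1 and 73.7 CPM for Slc2a1 and 66.5 and 52.6 CPM for Slc2a3, below the 3 h means of 106 and 104 CPM, and 102 and 119 CPM for Hk1, below the anti-CD41 mean of 124 CPM.

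**Figure D1:**
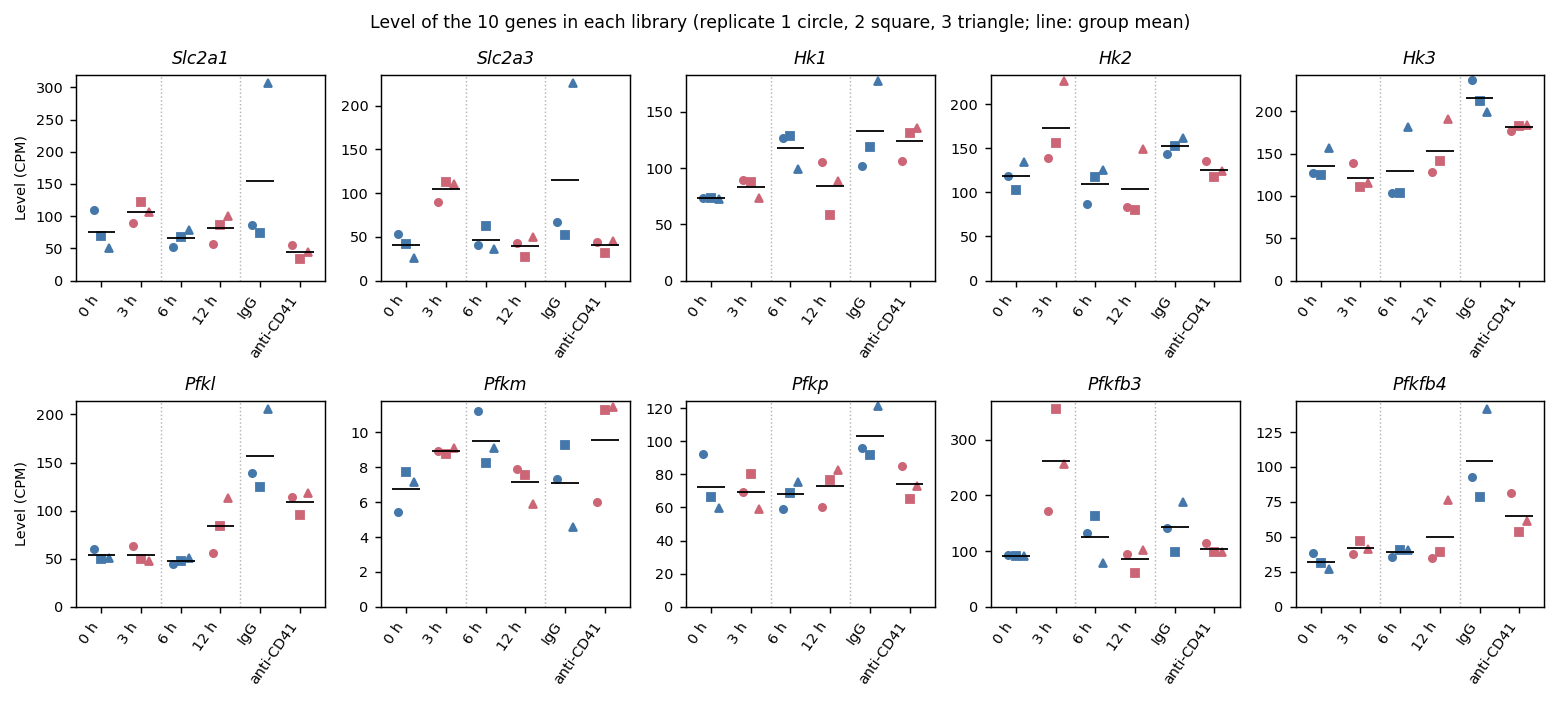
Level in CPM (vertical axes, linear from 0, scaled for each gene) of the 10 genes in each of the 18 libraries, by group, with a line at the group mean and dotted lines between the separately made tables. Slc2a3 and Pfkfb3 stand higher in all 3 libraries at 3 h than in any at 0 h, and IgG replicate 3 stands apart for Slc2a1 at 306 CPM and Slc2a3 at 225 CPM.

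The make-up of each family was read from the FPKM that the authors deposited (fragments scaled to transcript length and library size), since levels of different genes are comparable only per length. At 0 h Slc2a1 gave 74.6% ± 2.28 of the summed FPKM of the 2 transporters and Slc2a3 gave 25.4% ± 2.28 (SD, n = 3 each). At 3 h the share of Slc2a3 was 38.5% ± 1.46, and its lowest share there, 36.9%, lay above its highest at 0 h, 28.0%. It was 30.9% ± 7.29 at 6 h and 24.2% ± 7.81 at 12 h, where the groups overlapped. The exact two-sided permutation test of 3 against 3 libraries cannot go below p = 0.1, so that shares are given without a test.

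Hk3 had the highest group mean per length among the hexokinases at every time, with 51.7% ± 1.98 of the family's FPKM at 0 h, 42.2% ± 5.52 at 3 h, 44.3% ± 8.90 at 6 h and 55.1% ± 6.19 at 12 h. Hk2 held 25.5% ± 1.34 at 0 h and 34.0% ± 7.85 at 3 h, where its lowest library, 26.8%, stood just above the highest at 0 h, 26.5%. In 3 h replicate 3, Hk2 with 42.4% exceeded Hk3 with 37.7%. Hk1 held 34.3% ± 8.67 at 6 h and 22.8% ± 2.34 to 24.6% ± 7.43 at the other times, and in 6 h replicate 2 it exceeded Hk3, with 38.2% against 37.7%. Pfkp had the highest group mean among the phosphofructokinases, with 58.0% ± 4.09 at 0 h, 56.0% ± 4.16 at 3 h, 57.6% ± 2.38 at 6 h and 49.0% ± 3.59 at 12 h. Pfkl held 33.4% ± 0.57 at 6 h and 45.5% ± 5.53 at 12 h, with no overlap between the libraries of these times, and in 12 h replicate 3 it exceeded Pfkp, with 51.1% against 45.3%. On CPM divided by the length of the longest coding transcript, Pfkl had the higher group mean of the pair at 12 h, 52.0% against 41.9%. Pfkm never held more than 11.3% in a library of the time course. Pfkfb3 held 68.2% ± 3.34 of the PFKFB pair at 0 h, 81.5% ± 3.58 at 3 h, 69.1% ± 8.65 at 6 h and 56.9% ± 9.58 at 12 h, and again the 0 h and 3 h libraries did not overlap.

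In the antibody table, which holds no FPKM, CPM were divided by the length of the longest coding transcript of each gene. That scale gave other shares than FPKM where both could be had, at 0 h 30.6% against 25.4% for Slc2a3 and 42.2% against 35.9% for Pfkl, so that the antibody shares are not to be compared with the FPKM shares. On it, Slc2a3 held 37.9% ± 0.94 of the transporter pair with IgG and 43.0% ± 3.36 with anti-CD41, Hk3 held 53.5% ± 6.52 and 52.1% ± 0.71 of the hexokinases, Pfkl held 60.0% ± 3.78 and 57.8% ± 1.55 of the phosphofructokinases, and Pfkfb3 held 49.7% ± 2.67 and 53.9% ± 3.30 of the PFKFB pair (SD, n = 3 each). IgG and anti-CD41 libraries did not overlap in the share of Slc2a3, with 38.9% the highest with IgG and 39.3% the lowest with anti-CD41. Both transporters were far higher in IgG replicate 3 than in the other IgG libraries, but the share of Slc2a3 ran only from 37.0% to 38.9% over the 3.

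**Figure D2:**
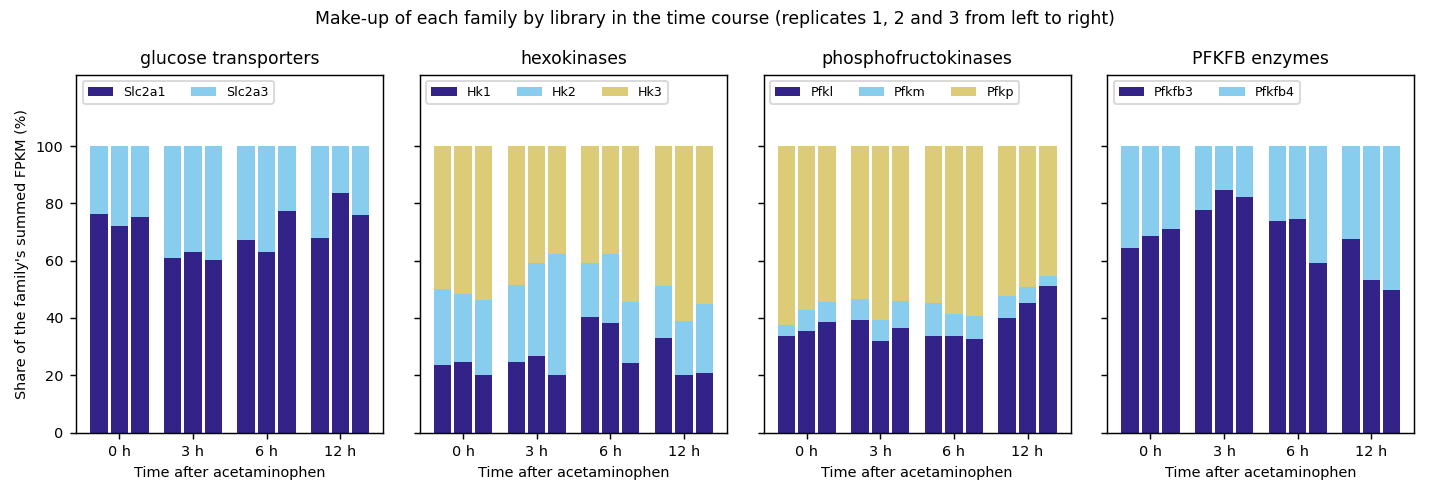
Share (vertical axis, percent) of each gene in the summed FPKM of its family, stacked for each library of the time course. The share of Slc2a3 is at least 36.9% in every 3 h library and at most 28.0% at 0 h, and that of Pfkfb3 is at least 77.6% at 3 h and at most 71.2% at 0 h.

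The first comparison asked how the genes differed 3 h after acetaminophen from 0 h. Slc2a3 and Pfkfb3 rose about 3-fold. The quasi-likelihood test of edgeR, with p-values adjusted by Benjamini and Hochberg's method over all 14161 genes, called 3 of the 10 higher (adjusted p under 0.05), against 19.1% of all genes tested. The 3 were Slc2a3, Pfkfb3 and Hk1, of which Hk1 rose only slightly and lost its call when any single library was left out. None of the 10 was called lower, against 23% of all genes. In either direction 42.1% of all genes were called, 5967 in number, or 3715 without 0 h replicate 2 and 3512 without 3 h replicate 3. The log2 fold change (0 is no difference, 1 is a doubling) was above 0 for 9 of the 10 genes and for 49.3% of all genes. The median of the 10 was 0.47, against -0.01 over all genes. An unadjusted p under 0.05 in the higher direction was reached by 6 of the 10 and by 24.0% of all genes. On the TMM scale, which corrects library totals for composition, the groups did not overlap for 5 of the 10, all higher at 3 h, against 26.6% of all genes that were apart and higher.

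Slc2a3, the high-affinity transporter, measured 53.3, 41.7 and 25.7 CPM in replicates 1, 2 and 3 at 0 h and 89.3, 113 and 111 CPM at 3 h. Every 3 h library was above every 0 h library. The log2 fold change was 1.45 ± 0.27 (SE), a 2.73-fold rise with a 95% interval of 1.74 to 4.28 (edgeR adjusted p = 0.00785). It remained called when any single library was left out, with 2.28-fold to 3.27-fold rises. Slc2a1, the basal transporter, measured 109, 68.9 and 49.8 CPM at 0 h and 89.4, 122 and 107 CPM at 3 h. Replicate 1 at 0 h overlapped with the 3 h libraries, and the log2 difference of 0.56 ± 0.29 was not called (edgeR adjusted p = 0.164). Without that library, the difference was 0.92 and was called (edgeR adjusted p = 0.0172).

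Hk1, the housekeeping hexokinase, was nearly constant at 0 h, with 73.7, 73.1 and 72.9 CPM. It measured 89.4, 87.9 and 73.5 CPM at 3 h, so that replicate 3 lay within the 0 h values on this scale. On the TMM scale the groups were apart, and the log2 fold change of 0.26 ± 0.09 was called (edgeR adjusted p = 0.0478). This call was lost without any 1 of the 6 libraries (edgeR adjusted p from 0.0569 to 0.132), with DESeq2 (0.0519) and on the FPKM, where the log2 difference was 0.18 (limma adjusted p = 0.204).

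Hk2, the inducible hexokinase, measured 119, 103 and 134 CPM at 0 h and 139, 156 and 227 CPM at 3 h. The groups did not overlap, and the log2 difference of 0.64 ± 0.22 missed the threshold (edgeR adjusted p = 0.0548). It was called by DESeq2 (adjusted p = 0.0302) and by edgeR without 3 h replicate 1 (log2 difference 0.82, adjusted p = 0.0312). Hk3 measured 127, 124 and 156 CPM at 0 h and 139, 111 and 115 CPM at 3 h, and was not called (log2 difference -0.08 ± 0.12, edgeR adjusted p = 0.603). The sign of the Hk3 difference turned when 0 h replicate 3 or 3 h replicate 2 was left out.

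None of the phosphofructokinases themselves was called, with log2 differences from 0.00 for Pfkp to 0.48 for Pfkm. Pfkl measured 60.5, 49.9 and 50.9 CPM at 0 h and 62.8, 50.1 and 47.6 CPM at 3 h, a log2 difference of 0.06 ± 0.13 with a 95% interval from -0.24 to 0.37. Pfkp measured 92.2, 66.3 and 59.4 CPM at 0 h and 69.3, 80.0 and 59.1 CPM at 3 h, a log2 difference of 0.00 ± 0.19 with an interval from -0.44 to 0.45. The groups overlapped for both. Pfkm, the muscle type and the least abundant, measured 5.46, 7.72 and 7.17 CPM at 0 h and 8.94, 8.76 and 9.12 CPM at 3 h. Its groups were apart, but the log2 difference of 0.48 ± 0.17 was not called (edgeR adjusted p = 0.0618).

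Pfkfb3 measured 92.8, 91.9 and 90.9 CPM at 0 h and 171, 355 and 256 CPM at 3 h. The 3 h libraries all stood above 0 h but spread widely among themselves. The log2 fold change was 1.59 ± 0.26, a 3.00-fold rise with a 95% interval of 1.97 to 4.57 (edgeR adjusted p = 0.00513). Leaving out single libraries gave 2.52-fold to 3.61-fold rises, each called. Pfkfb4 measured 38.5, 31.0 and 27.2 CPM at 0 h and 37.6, 47.1 and 41.0 CPM at 3 h. Replicate 1 at 3 h lay below replicate 1 at 0 h, and the log2 difference of 0.46 ± 0.17 was not called (edgeR adjusted p = 0.0665). Pfkfb4 was called without 0 h replicate 1, at 0.61 (edgeR adjusted p = 0.0205). In that 0 h library, 7 of the 10 genes had their highest value of the group. The share of all genes that did so was not computed.

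**Figure D3:**
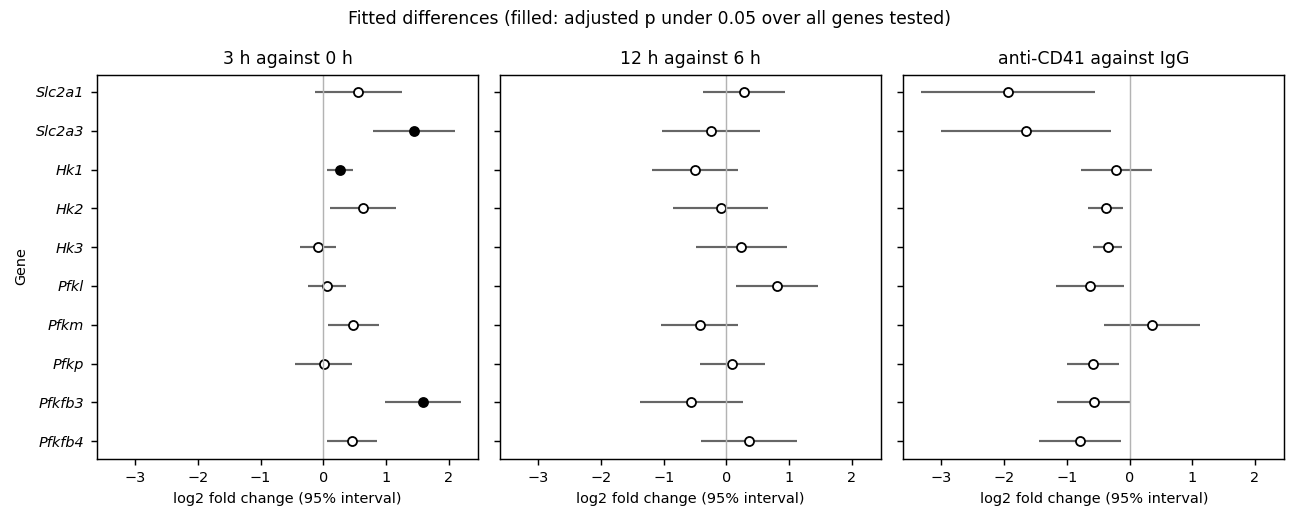
Fitted log2 fold change (horizontal axes, the same scale in each panel) of the 10 genes in the 3 comparisons, with 95% intervals as lines and filled points where the edgeR adjusted p was under 0.05. The 3 filled points are Slc2a3, Hk1 and Pfkfb3 at 3 h, and no point is filled in the other panels.

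Markers of other cell types differed between the same libraries. Of 14 tested neutrophil markers, 7 were called higher at 3 h and 1 lower, and their summed level was 1725, 1081 and 576 CPM at 0 h and 2069, 3327 and 3972 CPM at 3 h. All 8 tested platelet markers were called higher, with sums of 147 to 193 CPM at 0 h and 324 to 379 CPM at 3 h. Of 15 Kupffer cell markers, 6 were called higher and 1 lower (12402 to 17346 against 16041 to 21134 CPM). In the other direction, 7 of 10 markers of monocytes and monocyte-derived macrophages were called lower (1941 to 7102 against 462 to 1132 CPM), as were 8 of 15 hepatocyte markers (4666 to 8786 against 1605 to 4085 CPM). No marker of these 5 lists was at 0 in all 6 libraries. The part of these cells in the values of Slc2a3, Hk1 and Pfkfb3 was not tested.

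Other genes of the pathway moved in both directions at 3 h, as did genes at large, of which 19.1% were called higher and 23% lower. Of 19 tested genes for other ways of glucose entry and the upper steps, 5 rose and 7 fell, with a median log2 fold change of 0.02. Adpgk, whose enzyme phosphorylates glucose with ADP, rose from 69.9 ± 12.7 to 137 ± 13.7 CPM (SD, n = 3 each), and the intracellular transporter gene Slc2a8 rose by 1.22 on the log2 scale. G6pc, which encodes the catalytic subunit of glucose-6-phosphatase, rose by 3.55 but from at most 0.58 CPM.

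Of 18 genes of lower glycolysis and lactate handling, 3 rose and 9 fell, with a median of -0.54, on the other side of 0 from the median of the 10 upper genes. The enolase gene Eno1 and the phosphoglycerate mutase gene Pgam1 fell by 1.00 and 0.83 on the log2 scale, the kinase gene Pgk1 by 0.91 and the triose phosphate isomerase gene Tpi1 by 1.41. The 18 genes summed to 4969 to 6856 CPM at 0 h and 3265 to 3792 CPM at 3 h.

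Among 22 regulators, 8 rose and 3 fell, with a median of 0.05. Mlxip, which encodes a glucose-sensing transcription factor, rose by 1.30, the pyruvate dehydrogenase kinase gene Pdk3 by 1.14, Arnt, the partner of the hypoxia-inducible factors, by 0.80 and the stress gene Ddit4 by 1.50. Among 16 tested hypoxia-responsive genes outside glycolysis, 6 rose and 2 fell, with a median of 0.25. Ndrg1 rose by 1.25, the Myc antagonist gene Mxi1 by 1.85 and the histone demethylase gene Kdm3a by 1.05, while P4ha1, a collagen hydroxylase subunit gene, fell by 0.88. The pathway genes named at 3 h had edgeR adjusted p from 0.00174 to 0.00835.

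**Figure D4:**
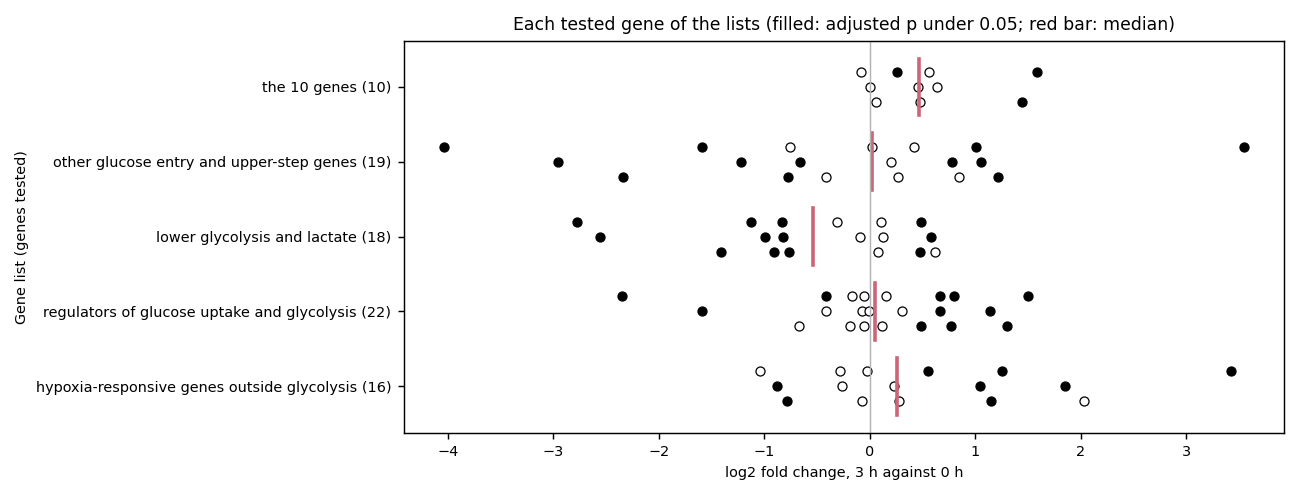
Log2 fold change at 3 h against 0 h (horizontal axis) of every tested gene in the 10 genes and in 4 pathway lists, filled where the edgeR adjusted p was under 0.05, with a red bar at each median. The median is 0.47 for the 10 upper genes and -0.54 for lower glycolysis.

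The second comparison set 12 h against 6 h. None of the 10 genes was called, and neither was any of the 14010 genes tested (0% called by edgeR, 5.18% at an unadjusted p under 0.05, and 3 genes called by DESeq2). Without 12 h replicate 1, 2 genes were called. Libraries of these times spread more than at 0 h and 3 h, with a common biological coefficient of variation of 0.371 against 0.201. Of the 10 genes, 5 had a log2 difference above 0 and 5 below.

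Pfkl came closest to a difference. It measured 44.5, 47.9 and 50.6 CPM at 6 h and 56.0, 83.8 and 113 CPM at 12 h. The groups did not overlap, with a log2 difference of 0.81 ± 0.28 (unadjusted p = 0.0231, edgeR adjusted p = 0.697). Pfkm was apart in the other direction, at 11.2, 8.25 and 9.09 CPM and then 7.90, 7.58 and 5.92 CPM, a log2 difference of -0.42 ± 0.26. These were 2 of the 10 genes whose groups did not overlap, against 9.28% of all genes. Pfkp measured 59.3, 68.9 and 75.4 CPM and then 60.1, 76.7 and 82.8 CPM.

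Slc2a1 measured 52.2, 67.6 and 78.0 CPM at 6 h and 57.4, 85.8 and 99.7 CPM at 12 h, and Slc2a3 measured 40.4, 62.6 and 36.2 CPM and then 42.3, 26.8 and 49.8 CPM. Hk1 measured 127, 129 and 98.9 CPM at 6 h and 106, 58.0 and 88.8 CPM at 12 h, a log2 difference of -0.50 ± 0.29. Hk2 measured 86.4, 118 and 126 CPM and then 83.2, 79.8 and 149.6 CPM, and Hk3 measured 104, 104 and 181 CPM and then 128, 141 and 192 CPM. These 5 genes overlapped between the times.

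Pfkfb3 measured 133, 162 and 78.9 CPM at 6 h and 94.7, 60.0 and 102 CPM at 12 h, a log2 difference of -0.56 ± 0.35 with a 95% interval from -1.38 to 0.27. Pfkfb4 measured 35.3, 40.4 and 41.0 CPM at 6 h and 34.8, 39.4 and 76.6 CPM at 12 h, where replicate 3 stood well above the others. That library had the highest value of the 12 h group for 8 of the 10 genes. For how large a share of all genes this held was not computed. Without 12 h replicate 3, the log2 difference of Pfkfb4 turned from 0.36 to -0.04.

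The 12 h libraries also differed in markers. Markers of monocytes and monocyte-derived macrophages summed to 1129, 4182 and 7001 CPM in replicates 1, 2 and 3, and sinusoidal endothelial markers to 9737, 4697 and 1766 CPM. At 6 h the sums were 864, 618 and 3192 CPM and 6972, 6155 and 7261 CPM. Kupffer cell markers summed to 20962 to 24635 CPM at 6 h and to 13163 to 17156 CPM at 12 h, with no overlap. Of the 15, 13 had a log2 difference below 0, with a median of -0.58, and none was called by edgeR. The lower glycolysis genes summed to 4287, 7723 and 7799 CPM at 12 h, against 3761 to 5071 CPM at 6 h, with a median log2 difference of 0.69 and none called. Pfkl, Slc2a1, Hk3, Pfkp and Pfkfb4 were likewise lowest in replicate 1 and highest in replicate 3. Slc2a3, Hk1, Hk2, Pfkm and Pfkfb3 did not have this order. The part of these cells in the levels of the genes was not tested.

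The third comparison asked whether the genes differed between mice given the antibody to CD41 and those given IgG. Levels of 9 of the 10 genes were lower with anti-CD41 on average, as for 49.1% of all genes, most of all those of both transporters, but none was called by edgeR after adjustment. By edgeR, 11 of 14905 genes tested were called (0.0738%), 10 of them higher, whereas DESeq2 called 1067 genes and voom with library weights 679. An unadjusted p under 0.05 in the lower direction was reached by 7 of the 10 genes and by 8.92% of all genes. For 6 of the 10 the groups did not overlap, all 6 lower with anti-CD41, against 12.3% of all genes that were apart and lower. The median log2 difference was -0.57, against 0.01 over all genes. The count of 11 was 1, 0 and 3 without IgG replicates 1, 2 and 3, and 110, 0 and 0 without anti-CD41 replicates 1, 2 and 3. The genes are not independent of each other, and IgG replicate 3 moved many of the values.

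Slc2a1 measured 86.1, 73.7 and 306 CPM with IgG and 55.6, 33.4 and 44.2 CPM with anti-CD41. The groups were apart, but replicate 3 of the IgG group was 3.84 times the mean of the other IgG libraries. The log2 difference was -1.95 ± 0.59 (edgeR adjusted p = 0.184), and without that library it was -0.90 ± 0.22 (edgeR adjusted p = 0.180). Slc2a3 measured 66.5, 52.6 and 225 CPM with IgG and 43.7, 31.6 and 45.4 CPM with anti-CD41. It too was apart between groups, with replicate 3 of IgG at 3.79 times the mean of the others. The log2 difference was -1.65 ± 0.57 (edgeR adjusted p = 0.211), and -0.62 ± 0.19 without that library (edgeR adjusted p = 0.205). Of 14898 tested genes with distinct symbols, 286 had a larger ratio than Slc2a1 in IgG replicate 3 and 293 a larger one than Slc2a3.

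Hk1 measured 102, 119 and 177 CPM with IgG and 106, 131 and 136 CPM with anti-CD41, and the groups overlapped. Its log2 difference was -0.21 ± 0.24, and 0.12 without IgG replicate 3. Hk2 measured 144, 152 and 162 CPM with IgG and 136, 117 and 124 CPM with anti-CD41, apart by a log2 difference of -0.38 ± 0.12 (edgeR adjusted p = 0.190). Hk3, the myeloid hexokinase, measured 237, 212 and 199.6 CPM with IgG and 177, 183 and 184 CPM with anti-CD41. Its difference did not rest on IgG replicate 3, which was the lowest of its group. It had a log2 difference of -0.35 ± 0.10 (edgeR adjusted p = 0.165), -0.36 without that library, and was called by DESeq2 alone (adjusted p = 0.0150).

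Pfkl measured 139, 124 and 206 CPM with IgG and 114, 95.1 and 118 CPM with anti-CD41, a log2 difference of -0.63 ± 0.23 (edgeR adjusted p = 0.223). Pfkp measured 96.0, 91.8 and 121 CPM and then 84.8, 65.3 and 72.7 CPM, a log2 difference of -0.58 ± 0.18 (edgeR adjusted p = 0.184). Both were apart between groups, and without IgG replicate 3 the differences were -0.33 and -0.39. Pfkm was the exception among the 10, at 7.35, 9.30 and 4.57 CPM with IgG and 6.02, 11.3 and 11.5 CPM with anti-CD41, a log2 difference of 0.35 ± 0.32 with overlapping groups.

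Pfkfb3 measured 142, 97.9 and 187 CPM with IgG and 115, 98.7 and 98.0 CPM with anti-CD41, a log2 difference of -0.57 ± 0.25 (edgeR adjusted p = 0.291). Replicate 2 of the IgG group lay with the anti-CD41 libraries, and the difference was -0.26 without IgG replicate 3. Pfkfb4 measured 92.5, 78.8 and 142 CPM with IgG and 81.1, 53.4 and 61.4 CPM with anti-CD41, a log2 difference of -0.79 ± 0.28 (edgeR adjusted p = 0.213), and -0.44 without that library. Anti-CD41 replicate 1 overlapped with the IgG libraries for this gene.

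**Figure D5:**
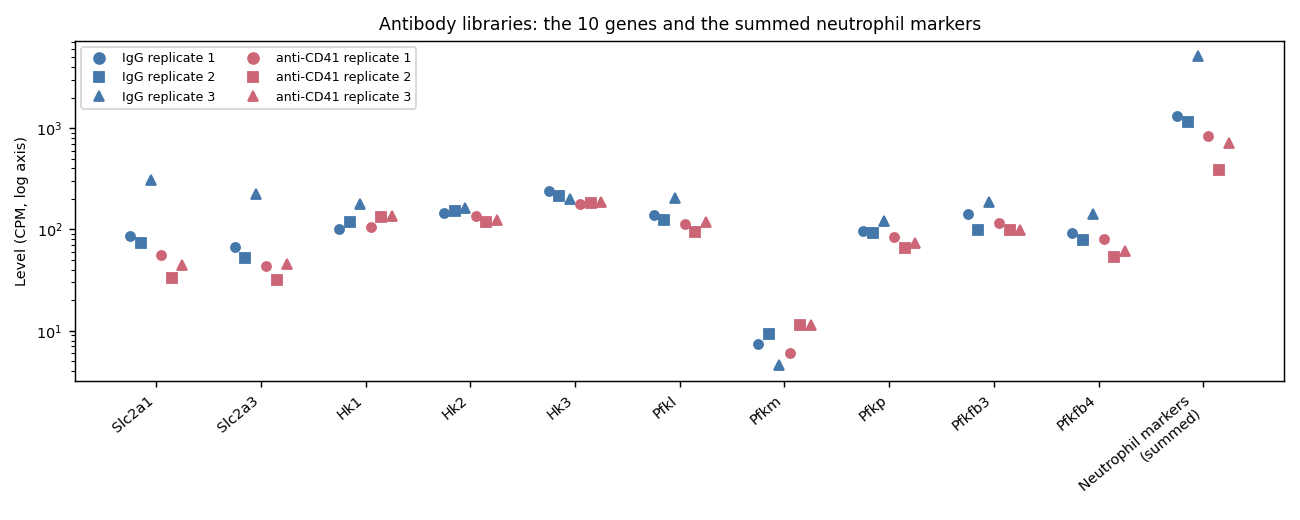
Level in CPM (log axis) of the 10 genes and of the summed neutrophil markers in the 6 antibody libraries, with a symbol for each replicate. IgG replicate 3 is the highest for both transporters, at 306 and 225 CPM, and for the neutrophil markers, at 5117 CPM, but the lowest of its group for Hk3 and Pfkm.

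IgG replicate 3 was the highest of its group for 8 of the 10 genes, whereas it was the highest for 27.2% of all tested genes. It was at least 2-fold above the mean of the other IgG libraries for 6.46% of all genes. Neutrophil markers summed to 1325, 1135 and 5117 CPM with IgG and to 842, 385 and 704 CPM with anti-CD41. None of the 14 tested was called by edgeR, and 8 had an unadjusted p under 0.05, all lower. Monocyte and macrophage markers summed to 6484 to 8469 CPM with IgG and to 2352 to 4771 CPM with anti-CD41. Sinusoidal endothelial markers lay the other way, at 3808 to 6595 CPM and 8253 to 10898 CPM. All 15 hepatocyte markers had a log2 difference above 0, with a median of 1.00 and none called by edgeR, and summed to 1037 to 1300 CPM with IgG and to 967 to 2716 CPM with anti-CD41. The part of these cells in the values of the 10 genes was not tested. Of 11 tested platelet markers, 9 had a log2 difference above 0 and 2 below, and none was called by edgeR. Only 1 had an unadjusted p under 0.05, in the lower direction. Their sums overlapped, at 148 to 373 CPM with IgG and 204 to 300 CPM with anti-CD41. Among them Itga2b, which encodes CD41, measured 3.78, 4.55 and 18.8 CPM with IgG and 13.6, 21.2 and 21.4 CPM with anti-CD41.

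No gene of the 4 pathway lists was called between the antibody groups. Lower glycolysis and lactate genes had a median log2 difference of -0.43, with 15 of 18 below 0, and hypoxia-responsive genes a median of -0.35, with 12 of 16 below 0. The other upper-step genes had a median of 0.36 and the regulators one of -0.14. Lower glycolysis sums were 5443 to 6349 CPM with IgG and 3839 to 5062 CPM with anti-CD41, with no overlap and with IgG replicate 1, at 6294 CPM, close to replicate 3.

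Across the 18 libraries, with log2 levels centred within each table, the genes whose pattern was most like that of each of the 10 were read from 9858 genes by Pearson's r, as a description. The libraries share tables and treatment groups, so the points are not independent. IgG replicate 3, at 3.84 and 3.79 times the mean of the other IgG libraries for Slc2a1 and Slc2a3, weighs heavily in the r of those genes. Values of r without that library were not computed. Slc2a1 was most like Ripor2 (r = 0.97) and Gcnt2 (r = 0.96). Slc2a3 was most like Alox5 (r = 0.96) and Cxcr2 (r = 0.95), of which Cxcr2, a chemokine receptor gene, is one of the neutrophil markers. Pfkl was most like Vegfa (r = 0.95), Pfkfb3 like Ppard (r = 0.95) and Pfkfb4 like Sorl1 (r = 0.95). Likeness was weaker for Hk1 with Fam160a2 (r = 0.91), Pfkp with Egr3 (r = 0.91), Hk3 with Irf4 (r = 0.87), Hk2 with Prdm1 (r = 0.84) and Pfkm with Ankrd24 (r = 0.83). Among the 10 themselves r ran from -0.74, between Pfkm and Pfkp, to 0.88, between Slc2a1 and Pfkfb4, and was 0.83 between the 2 transporters.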

How the data were processed

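Total RNA of 18 libraries in 6 groups of 3 was aligned with HISAT2 to GRCm38, per the submitters' processing notes. How reads were counted, with which annotation, and the versions used are not stated in the labels or headers. For 0 h with 3 h, and for 6 h with 12 h, the authors deposited expected counts (estimates, some of them fractional), FPKM and TPM per gene, per the file headers. The TPM that the authors deposited gave nearly the same family shares as the FPKM and is not printed. For the antibody groups the authors deposited whole-number counts, per the file headers. For levels of antibody symbols with several identifiers (19), the one with the largest total was kept. The fits used every identifier as its own gene. The 27 symbols turned into dates were restored.

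Fits were made in R 4.3.3, one for each table and comparison. Expected counts were rounded, genes were kept by filterByExpr (minimum count 10), and libraries were scaled by TMM. Tests were edgeR 4.0.16 quasi-likelihood tests, two-sided, at a Benjamini-Hochberg adjusted p of 0.05 across the genes of that table. SE is the log2 fold change over the root of F. Levels are CPM, counts scaled to 1000000 per library. The tests were tried on simulated counts, whose outcome is not given here and on which no result rests. Intervals are at 95% and, with 3 libraries a group, wide.

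Alternatives were other size factors (those of DESeq2) within edgeR, DESeq2 1.42.0 itself, no filter, a replicate block, limma 3.58.1 on log2(FPKM + 1) with at least 1 FPKM in 3 libraries, and each library left out. Voom with library weights was added after the data were seen. The 10 genes, the pathway and marker lists and the tests were chosen with earlier results of these data known. All 10 genes are named throughout, of each pathway list up to 4 called genes with the smallest p, and up to 3 genes most alike in pattern. Itga2b was named after its values were seen. Within each comparison all library pairs differed by more than sampling noise (chi-square per degree of freedom of 15.8 or more). Pairs across the separately made tables were not compared in this way. Promoter sequences are RefSeq's, for GRCm38.p6. Trac, a T cell marker, is not used here, and a few listed genes are not reported here by name.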

Additional observations from a re-analysis of the deposited data

How the results depend on the processing

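Slc2a3 and Pfkfb3 were called at 3 h under all 12 alternatives, and Hk1 kept its direction under all of them. Of the log2 differences of the 10 genes under the alternatives, 315 kept their direction and their side of the threshold, 10 lost the call (all of Hk1 at 3 h), 9 gained one and 16 turned. The number of the 10 genes called at 3 h was 6 with voom and library weights (Slc2a1, Slc2a3, Hk1, Hk2, Pfkfb3 and Pfkfb4). With anti-CD41 it was 1, Hk3, with DESeq2. Over all genes, 3512 to 6192 were called at 3 h with single libraries left out, 0 to 2 at 12 h and 0 to 110 with anti-CD41, where leaving out anti-CD41 replicate 1 gave the most. DESeq2 called 3 genes at 12 h and 1067 with anti-CD41, and voom with library weights called 679 with anti-CD41. The cause was not tested.

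Same-numbered libraries did not deviate together throughout, with r of 0.0247, 0.273 and -0.126 at 3 h, 0.271, -0.0464 and 0.179 at 12 h, and 0.089, 0.174 and 0.0368 with anti-CD41. The labels do not say what the numbers mark, and not every pair was above 0.1, so the numbers were not taken to pair the libraries. A replicate block called 5041 genes at 3 h, 0 at 12 h and 384 with anti-CD41. Among the 10 genes at 3 h it lost Hk1 and added Hk2. In no comparison did every library correlate best with its own number. With anti-CD41, however, all 3 same-numbered pairs had r above 0. There only IgG replicate 3 missed, by a near tie, at 0.0369 with anti-CD41 replicate 1 and 0.0368 with its own number. Whether the antibody libraries are paired was not settled, and none of the 10 genes was called there with the block.

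Signs that turned belong to genes that were not called. At 3 h the FPKM gave -0.015 for Pfkl and -0.063 for Pfkp, and leaving out libraries gave -0.013 to 0.16 for Pfkl, -0.14 to 0.22 for Pfkp and -0.14 to 0.0066 for Hk3. At 12 h voom gave 0.099 for Hk2, and leaving out libraries gave -0.40 to 0.078 for Hk2, -0.41 to 0.067 for Slc2a3 and -0.039 to 0.59 for Pfkfb4. With anti-CD41 voom gave 0.054 for Hk1, and leaving out libraries gave -0.38 to 0.12. On the FPKM at 3 h the median of all genes was -0.11, with 1783 genes higher and 3381 lower, against 2703 and 3264.

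A gene that was not called at 3 h, at 12 h or with anti-CD41 is not shown to be equal between the groups.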
